A study of Arabidopsis thaliana with 53 samples.

Results

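Open chromatin in roots of the Arabidopsis thaliana quadruple mutant abf1/2/3/4 was compared between seedlings treated with abscisic acid (ABA) for 2 h and vehicle controls of the same genotype. The material was the ATAC-seq peak list of each group, 17705 peaks with ABA and 19277 without, together 36982 of the 353370 peaks in the 18 lists of the series. A peak is a stretch of genome where the Tn5 transposase inserted adapters often enough to be called open by the authors' peak caller. Peaks of the ABA list that shared no base with a control peak were counted as gained, and control peaks that shared no base with an ABA peak as lost. Peaks that overlapped exactly 1 peak of the other list were paired, and their ranks by −log10 p were compared.

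The series followed chromatin accessibility through ABA and CO2 treatments in roots, mesophyll, guard cells and whole seedlings, in 53 samples. The mutant ABA group and the mutant control group had 3 samples each, both in the Col-0 background. The genotype label abf1/2/3/4 stands for mutations in 4 genes that both groups carried, ABF1, ABF2, ABF3 and ABF4. Seedlings had been moved in bulk to agar plates with 50 µM ABA or with ethanol as the vehicle, and nuclei bearing an H2B-EGFP fluorescent histone were isolated by cell sorting. Which promoter drove the marker in roots is not given in the sources used here. The titles of the ABA group give 2 h, whereas its treatment time is labelled 4 h. The control group is also labelled 4 h. Wild-type (WT) Col-0 roots with 50 µM ABA for 2 h and their control, 3 samples each, were used for comparison. For the WT ABA group both the titles and the treatment time give 2 h, so the time labels of the genotypes differ, and in each comparison of mutant and WT below a difference in duration cannot be told apart from genotype. The WT control is labelled 4 h, like the mutant control. Also used for comparison were abf1/2/3/4 roots with 50 µM ABA for 45 min, a group of 2 samples. WT roots with 50 µM ABA for 45 min and for 4 h, 3 samples each, were used as well. Each group is represented by 1 list, and whether its samples were pooled before peaks were called is not given in the sources used here. The spread between samples and the depth of each sample are therefore unknown, no p-value between groups could be given, and intervals cover counting error only.

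ABA is perceived by PYR/PYL receptors, which in the presence of the hormone bind and inhibit clade A type 2C protein phosphatases (PP2Cs). This releases SnRK2 kinases, which phosphorylate bZIP transcription factors of the ABF family. ABFs bind ABA-responsive elements in promoters of stress genes, and in roots the hormone also acts on growth, root hairs and ion transport.

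In abf1/2/3/4 roots more peaks left the list with ABA than entered it. Of the 17705 ABA peaks, 860 were gained, a share of 4.86% (exact 95% interval 4.55% to 5.18%). Of the 19277 control peaks, 2842 were lost, a share of 14.7% (14.2% to 15.3%). The share gained less the share lost came to −9.89 percentage points. In WT roots the order was the other way, with 4284 peaks gained (15.6%, 15.1% to 16.0%) and 2078 lost (8.07%, 7.74% to 8.41%). This difference between the genotypes could not be tested. The ABA list of the mutant was the shorter of its pair and had the lower median −log10 p, 6.23 against 6.83 in the control list. In WT the ABA list was the longer one, with 27514 against 25753 peaks and a median of 8.11 against 8.04. With both mutant lists reduced to the same number of strongest peaks, 8.17% were gained and 10.6% lost. At equal length these shares can differ only through peaks split or merged between the lists. Whether fewer reads or less open chromatin made the shorter list was not tested.

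Peaks that entered or left the list were mostly weak ones. No gained peak was in the stronger 50% of the ABA list, and the highest gained peak had rank 9281. In the weakest 10% of that list 29.3% of peaks were gained. Lost peaks reached higher, with 58 above the middle of the control list and a highest rank of 3699. In the weakest 10% of the control list 60.0% were lost. The median −log10 p was 4.22 for gained and 4.60 for lost peaks, and their median widths were 309 and 263 bp, against 387 bp for all ABA peaks and 392 bp for all control peaks. Among the 5000 strongest peaks of each list, 0 were gained and 7 were lost. Among the 10000 strongest these numbers were 5 and 67.

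**Figure D1:**
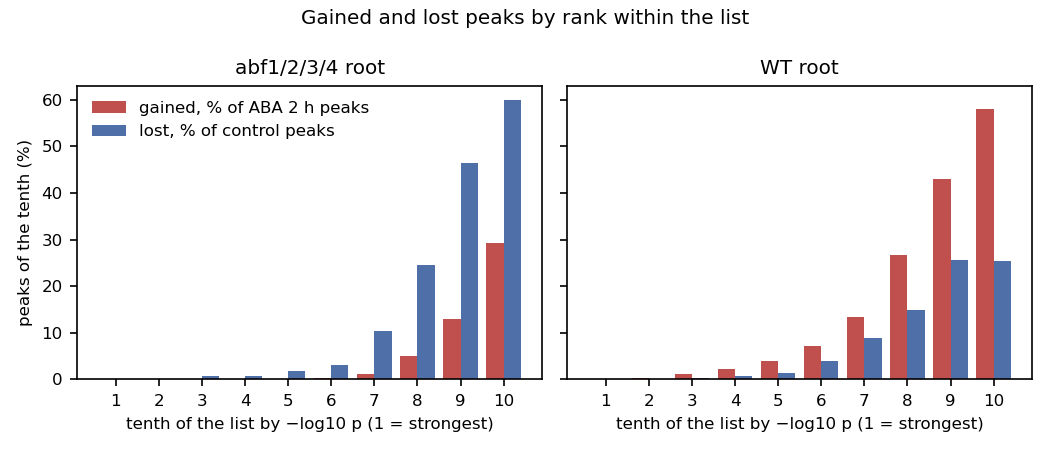
Share of peaks gained (red, percent of the ABA 2 h peaks of a class) and lost (blue, percent of the control peaks of a class) in 10 equal classes of rank, from the strongest (1) to the weakest (10), in abf1/2/3/4 roots (left) and WT roots (right). In the mutant the lost share reaches 60.0% and the gained share 29.3% in the weakest class, whereas in WT the gained share is the higher one, at 58.0%.

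Gained peaks lay inside genes far more often than the rest of the list. The summit, the base of strongest signal, fell within a protein-coding gene for 613 of the 860 gained peaks (71.3%, 68.1% to 74.3%), against 35.0% of all ABA peaks. Of the lost peaks 32.2% had their summit inside a gene (30.5% to 33.9%), close to the 32.1% of all control peaks. Most of the other lost peaks, 48.8% of all lost, lay outside genes but within 1000 bp of one. The difference was as large among peaks of similar rank. In the weakest 10% of the ABA list, the summit was inside a gene for 72.6% of the 519 gained peaks and for 35.6% of the 1252 others. Lost peaks differed from others of similar rank in the other direction. In the weakest 10% of the control list, the summit was inside a gene for 35.4% of the 1157 lost peaks (32.7% to 38.3%) and for 50.7% of the 771 others (47.1% to 54.3%). With lists of equal length the share was 63.3% for gained and 30.2% for lost peaks. In WT roots gained peaks were also more often inside genes (59.3%) than all ABA peaks (43.7%). In abf1/2/3/4 roots after 45 min of ABA, a group of 2 samples compared with the same control list, 42.3% of the 674 gained peaks were inside genes. The gene table used has neither strand nor exons, so exons, introns and UTRs could not be separated.

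**Figure D2:**
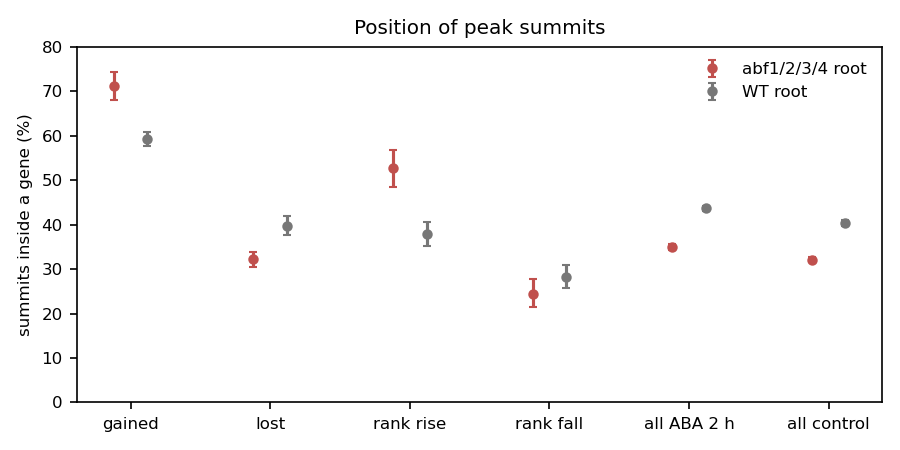
Percent of peaks whose summit lies inside a protein-coding gene (vertical axis) for gained, lost, rank-rising and rank-falling peaks and for whole lists, in abf1/2/3/4 roots (red) and WT roots (grey). Bars are exact 95% intervals that cover counting error only. Gained peaks of the mutant stand at 71.3% and peaks that fell in rank at 24.5%.

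The gained peak of highest rank lay inside AT5G41390 (chr5:16567017-16567235 in TAIR10, the build named in the submitters' processing notes), with a −log10 p of 6.09 in the ABA list and no control peak. Of the 10 highest-ranked gained peaks, 8 were inside genes. One of them lay inside BETA-OHASE 2, which encodes a β-carotene hydroxylase of the carotenoid pathway that precedes ABA synthesis (chr5:21335432-21335596). Its −log10 p was 5.90 with ABA and it was absent from the control. In WT roots the site had 12.6 with ABA and 6.86 in the control. Another lay 40 bp from NAC019, a stress-induced NAC transcription factor (chr1:19698465-19698660), with 5.88 in the mutant ABA list and no control peak. In WT it had 19.8 with ABA and 6.19 without, a rank higher by 68.2 percentile points with ABA. The gained peak inside OPT3, an oligopeptide transporter involved in iron distribution (chr4:9247815-9248254), had 5.63 in the mutant ABA list, and 9.40 with ABA against 7.38 without in WT. The others of the 10 were at AT4G15460, AT1G34640, AT5G49180, AT1G60590, AT4G16980 and AT3G28790, with −log10 p values of 5.97, 5.90, 5.72, 5.67, 5.65 and 5.64. All 10 sites had a peak in both WT lists, and at all 10 the WT peak had a higher −log10 p with ABA than without.

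That WT already had a peak at these sites held for nearly all gained peaks. Of the 860, 98.5% (97.4% to 99.2%) overlapped a peak of the WT ABA list and 94.2% (92.4% to 95.7%) one of the WT control list, against 98.7% and 99.3% of all mutant ABA peaks. Gained in WT too were 41 of the 860 (4.77%), which made up 0.957% of the 4284 WT gained peaks. A site with a WT control peak could hardly be gained there, and 44 of the 860 had a WT ABA peak without a WT control peak. The low share therefore follows mostly from the WT control peaks. Of all mutant ABA peaks 0.548% overlapped a WT gained peak. At the 803 gained sites with a peak in both WT lists, −log10 p was higher with ABA at 85.8%, and it was higher at 71.3% of all mutant ABA peaks with both. When all root lists were reduced to 17705 peaks, 73.5% of gained sites were found in the WT ABA list and 51.1% in the WT control list, against 90.6% and 91.2% of all mutant ABA peaks. Of the 860, 5 overlapped no peak in any of the 4 WT root lists. They were at AT5G37840, AT1G79570, AT2G36815, AT3G20555 and CYP708A2, an enzyme of triterpene metabolism, and had −log10 p values of 4.37, 4.30, 4.07, 3.06 and 4.06. These 5 genes were singled out after their values were seen.

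Lost peaks of high rank lay outside genes, and none of the 10 highest had its summit inside one. The first lay 122 bp from PMSR3, a peptide methionine sulfoxide reductase (chr5:2361889-2362843). It was absent from the mutant ABA list and had 9.92 in the mutant control list, while WT had 8.13 with ABA and 13.9 without. The peak 1076 bp from CIPK8, a kinase of the calcium-dependent CBL-CIPK network (chr4:12621508-12622169), was absent with ABA and had 9.72 in the mutant control, against 10.4 with ABA and 14.3 without in WT. At PGSIP7, a glycosyltransferase of the glycogenin-like family (chr2:15014549-15014926), the mutant control peak had 8.89, and WT had 5.33 with ABA and 10.4 without. The remaining ones were at AT3G11370, TBL33, AT2G02700, AT2G28970, AT5G04780, AT2G13900 and AT5G58900, with control values of 9.83, 9.58, 9.31, 9.14, 9.14, 9.02 and 8.90. All 10 sites had a WT control peak. In the WT ABA list 3 of them had none and the other 7 had a lower −log10 p than in the WT control. This did not hold for every lost peak. At the 1942 lost sites with a peak in both WT lists, −log10 p was higher with ABA at 53.3%, with a median difference, ABA minus control, of 0.11. It was higher at 69.3% of all mutant control peaks with both. Of all 2842 lost peaks, 506 (17.8%, 16.4% to 19.3%) overlapped a peak lost in WT, and 511 of the 2078 WT lost peaks (24.6%) overlapped a mutant lost peak. Among all mutant control peaks 3.82% overlapped a WT lost peak.

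Most peaks kept their place. The 15602 pairs held 88.1% of the ABA peaks and 80.9% of the control peaks. A further 1243 ABA peaks and 833 control peaks overlapped a peak of the other list but had been split or merged. The −log10 p was higher with ABA in 12.7% of pairs, and the median difference, ABA minus control, was −0.93. Ranks among the pairs, which do not depend on the overall level of either list, had a standard deviation of change of 11.5 percentile points. In 586 pairs (3.76%) the rank was at least 20 points higher with ABA, called a rank rise here, and in 744 pairs (4.77%) at least 20 points lower, a rank fall. In WT roots 5.97% of 21464 pairs were rank rises and 5.65% rank falls, with a standard deviation of 13.2 points.

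**Figure D3:**
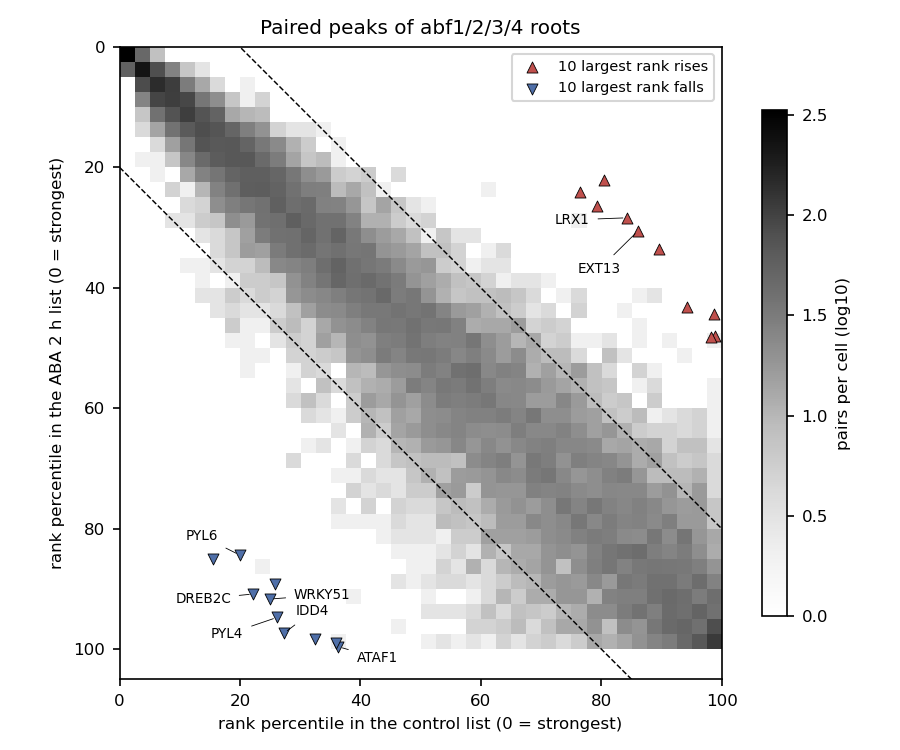
Rank percentile of paired peaks of abf1/2/3/4 roots in the control list (horizontal) and the ABA 2 h list (vertical), with 0 for the strongest pair. Shading gives the number of pairs per cell on a log10 scale, dashed lines mark moves of 20 points, and triangles mark the 10 largest rises (red) and falls (blue). The falls at PYL4, PYL6 and DREB2C correspond to changes of −68.5, −64.4 and −68.6 points.

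Rank rises were inside genes more often than all pairs, though less often than gained peaks, and rank falls less often. The summit was inside a gene for 52.7% of rises (48.6% to 56.8%), 24.5% of falls (21.4% to 27.7%) and 33.6% of all pairs. In WT it was inside a gene for 38.0% of rises (35.3% to 40.7%), 28.3% of falls (25.8% to 30.9%) and 41.1% of all pairs, so that WT rises did not show the excess. The median width of rising peaks was 386 bp with ABA and 327 bp in the control. Falling peaks were narrower with ABA, 349 bp against 498 bp. Over all pairs these medians were 386 and 413 bp. Rises and falls were chosen by change in strength, and the weak gained and lost peaks were narrower than the whole lists. The widths are thus not independent of this choice. Pairs whose summits lay outside genes, ranked among themselves, gave 312 rises and 461 falls among 10199 pairs.

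All 10 of the largest rank rises were inside genes. The largest was in AT1G29380 (chr1:10284379-10284868), with a −log10 p of 8.50 with ABA and 5.48 in the control, a rise of 58.4 points. LRX1, a leucine-rich repeat extensin of the root hair cell wall, had 7.90 with ABA and 5.25 in the control, and its paralog LRX2 had 8.08 and 5.55, rises of 55.9 and 52.9 points. EXT13, an extensin, had 7.70 with ABA and 5.13 in the control. HSD5, a hydroxysteroid dehydrogenase, had 6.70 with ABA and 3.98 in the control, a rise of 54.5 points. GR-RBP2, a glycine-rich RNA-binding protein, had 8.30 and 5.71. The other 4 were AT4G10070, AT5G40790, AT5G49350 and AT5G07740, with rises between 50.1 and 56.1 points. In WT all 10 sites had a higher −log10 p with ABA, but the rank changes were smaller, between 4.69 points at AT5G07740 and 23.0 points at AT5G40790. The sites were picked for the largest mutant rises. In the WT control list of 25753 peaks they already ranked between 4649 (AT1G29380) and 11947 (HSD5), which left less room to rise. The smaller WT changes therefore do not show a difference between the genotypes.

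The 10 largest rank falls included the ABA receptor genes PYL4 and PYL6 and the transcription factor genes DREB2C, IDD4, ATAF1 and WRKY51. At PYL6 the peak (chr2:16845772-16846299 in the control list) had a −log10 p of 4.71 with ABA and 10.1 in the control, a change of −64.4 points. At PYL4 a control peak of 2230 bp with 9.37 was paired with an ABA peak of 210 bp and 4.22, a change of −68.5 points. DREB2C, a DREB-type transcription factor, had 4.44 with ABA and 9.83 in the control, a change of −68.6 points. The fall at IDD4, a zinc finger transcription factor whose end was 2473 bp away, was the largest, with 4.01 with ABA and 9.24 in the control and a change of −70.1 points. ATAF1, a NAC transcription factor, had 3.63 with ABA and 8.36 in the control, and WRKY51, a WRKY factor, had 4.39 and 9.52. The others were at AT1G06148, AT1G07550, AT5G61200 and AT3G03670, with changes between −69.5 and −63.1 points.

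At 2 of the genes whose site had a WT pair, IDD4 and ATAF1, the change was about as large in WT. DREB2C, PYL6 and PYL4 had no such pair, as their WT peaks were split or merged, so no WT rank change was computed. The strongest overlapping WT peaks there had a −log10 p of 5.73, 8.23 and 8.86 with ABA and 12.8, 13.5 and 10.5 without. IDD4 had 4.45 with ABA and 11.6 in the control in WT, a change of −71.1 points, and ATAF1 had 5.69 and 12.8, a change of −64.9. WRKY51 changed by −47.0 points in WT and AT1G07550 by −13.2. At all 10 sites the WT −log10 p was lower with ABA than without, although it was higher with ABA at 69.3% of all mutant control peaks found in both WT lists. Over the 629 mutant falls with a WT pair, the median WT change was −13.5 points, and 35.8% were rank falls in WT against 5.48% of the 13712 sites paired in both genotypes. Over the 502 mutant rises with a WT pair, the median WT change was 6.12 points, and 13.5% were rank rises in WT against 4.48% of all these sites. Mutant and WT lists share no samples. Across the 13712 sites the changes in both genotypes had a Pearson r of 0.33 and a Spearman rho of 0.27 as a description, with sites that share their libraries.

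The peaks at PYL6 and DREB2C belonged to 1 stretch of chromosome 2 in which every control peak was weaker or missing with ABA. Weaker peaks with ABA were the rule across the mutant lists. There −log10 p was higher with ABA in 12.7% of pairs, and 14.7% of control peaks were lost. From the TBL33 end to DREB2C the mutant control list had 7 peaks, of which 3 were lost. TBL33 belongs to a family of cell wall acetylation proteins, and its peak (chr2:16842882-16844090) was the strongest of the lost ones here, absent with ABA and at 9.58 in the control. A peak of 1161 bp between PYL6 and DREB2C was also absent with ABA and had 6.65 in the control. Of the 3 strongest sites, WT had 5.40 with ABA and 15.1 without at TBL33, 8.23 and 13.5 at PYL6, and 5.73 and 12.8 at DREB2C. After 45 min of ABA, the mutant had 5.80 at PYL6 and 5.72 at DREB2C and no peak at the site lost near TBL33. Whether accessibility changed in all root cells or in some of them cannot be told apart in these bulk samples.

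**Figure D4:**
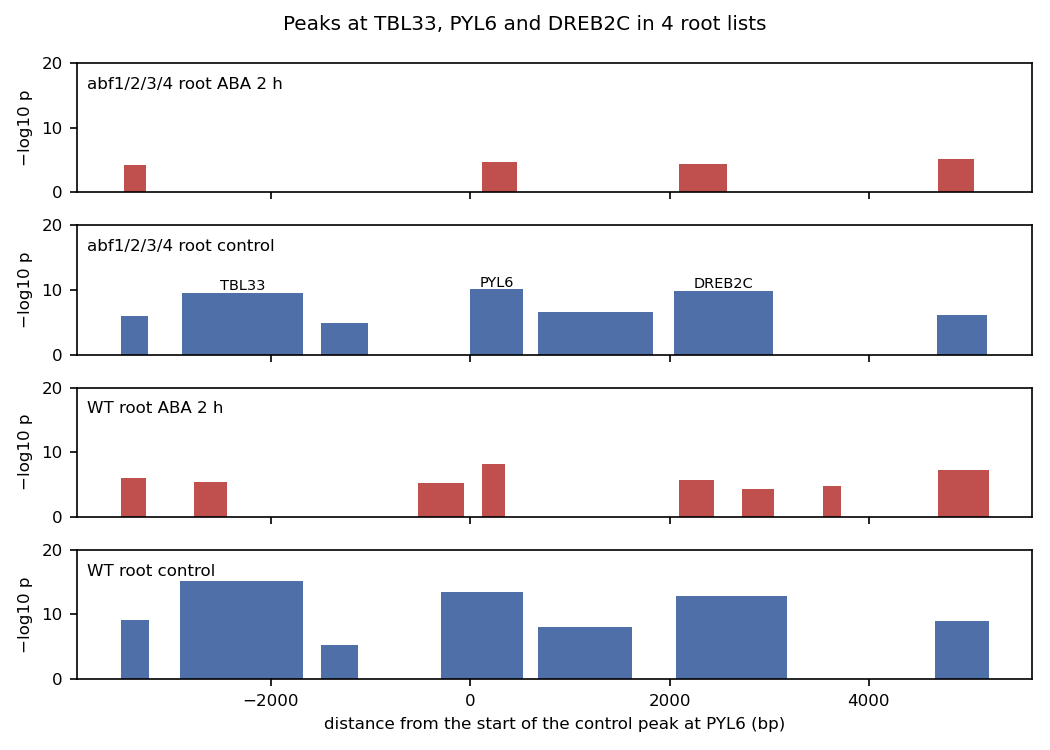
Peaks at TBL33, PYL6 and DREB2C as bars of their width (horizontal axis, bp from the start of the mutant control peak at PYL6) and −log10 p (vertical axis), in the ABA 2 h list and the control list of abf1/2/3/4 roots and of WT roots. The 3 tallest control bars of the mutant, 9.58, 10.1 and 9.83, are missing or below 5 with ABA.

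The genes of the ABA pathway were then read one group at a time, counting a gene where a gained or lost peak or a rank change lay inside it or within 1500 bp of either end. Of all 27444 protein-coding genes, 5.11% had a gained peak, 13.8% a lost peak, 3.29% a rank rise and 3.93% a rank fall by this count. Of 125 listed genes, 10 had a gained peak (8%), 29 a lost peak (23.2%), 5 a rank rise (4.00%) and 11 a rank fall (8.80%). With lists of equal length 16 had a gained peak, and within 500 bp 17 had a lost peak. In WT roots 42 of the same genes had a gained peak, 26 a lost peak, 15 a rank rise and 15 a rank fall, against 20.2%, 9.97%, 6.52% and 5.91% of all genes. No test of these counts was possible. In the mutant, 106 of the 125 listed genes had any peak within that distance with ABA and 107 in the control. Of all genes 63.4% and 66.9% had one. Listed genes as a whole thus had more chances to be counted, and the comparisons with all genes here and below do not correct for this.

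Among the 14 PYR/PYL receptors, 7 had a lost peak (50.0% against 13.8% of all genes) and 2 a rank fall (14.3% against 3.93%) in the mutant, while 1 had a gained peak and 0 a rank rise. PYL1 lost peaks with control values of 5.89 and 5.12. PYL5 lost peaks with 4.09 and 5.44, and its strongest control peak, with 17.5, was split into peaks of 10.7 and 12.6 with ABA. PYL4 lost a peak with 4.94 beside the fall above, and PYL11 and PYL12 shared a lost peak with 4.40. In WT, 4 of the 14 had a lost peak, 5 a rank fall, 2 a gained peak and 1 a rank rise. The PYL1 sites had 4.23 and 4.78 with ABA there and 8.09 and 7.18 without, changes of −46.1 and −33.9 points. PYL9 went against the group in part, with a gained peak of 3.68 and a lost one with 4.50 in the mutant, and a peak of 8.77 with ABA against 4.77 without in WT. The median change over the 17 mutant receptor pairs was 0.83 points, against 0.20 over all pairs.

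Of 9 clade A PP2Cs, the negative regulators that the receptors inhibit, 2 had a gained peak in the mutant (22.2% against 5.11% of all genes), 1 a lost peak (11.1% against 13.8%), and 0 a rank rise or fall. HAI3 gained a peak with 4.42, and HAB1 gained one with 4.66 and lost one with 5.71. HAI2 had 10.5 with ABA and 11.6 in the control at its only peak. In WT, 5 of the 9 had a gained peak (55.6% against 20.2% of all genes), 2 a lost peak and 2 a rank rise. HAI2 had 14.2 with ABA and 5.22 without at one WT site, a rise of 67.6 points, and neither mutant list had a peak within the counted distance at that site. At HAI1 the mutant peak had 8.65 with ABA and 8.06 in the control, a change of 19.4 points. The WT one had 21.1 and 12.9, a change of 16.0 points.

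Of 10 SnRK2 genes, 4 had a lost peak in the mutant (40% against 13.8% of all genes), 1 a gained peak (10% against 5.11%), 1 a rank fall (10% against 3.93%) and 0 a rank rise. In WT 2 had a lost peak and 1 each a gained peak, a rank rise and a rank fall. The fall was at SNRK2.8, with 6.48 with ABA and 10.2 in the control, a change of −28.5 points, against 12.9 and 11.3 and a change of 3.76 points in WT. SNRK2.6, the guard cell kinase also known as OST1, gained a peak of 3.82 and lost one with 4.46 in the mutant, and WT had 13.1 with ABA and 5.74 without at the gained site. Of the 4 ABF genes, 0 had a gained peak, a rank rise or a rank fall and ABF2 had a lost peak with 4.01 in the mutant. At ABF4 neither mutant list had a peak, while WT had 14.1 with ABA and 6.26 without, a rise of 53.0 points. Peaks remained at ABF1, ABF2 and ABF3 in both mutant lists. Peak lists show neither transcripts nor insertions, so the mutations themselves could not be checked here.

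Of 21 genes that ABA is known to induce, 1 had a gained peak in the mutant (4.76%, near the 5.11% of all genes), 4 a lost peak (19.0%), 2 a rank rise (9.52%) and 0 a rank fall. In WT 8 had a gained peak (38.1% against 20.2% of all genes), 3 a lost peak, 4 a rank rise and 2 a rank fall. COR15B, a cold-regulated chloroplast protein, gained a peak of 5.63, at a site with 11.7 with ABA and 8.66 without in WT. RD29A and its neighbour RD29B, which share the region between them, had 7.80 with ABA and 7.32 in the control at 1 site, a rise of 20.5 points. In WT that site had 18.8 with ABA and 10.6 without, a rise of 25.5 points. At LEA4-5, a late embryogenesis abundant protein, the mutant had 4.42 with ABA and 4.05 in the control, a change of 7.31 points. The WT peak there had 20.4 with ABA and 4.07 without, a rise of 93.9 points, the largest among all WT pairs. KIN1, a cold- and ABA-induced gene, had a WT site of 15.4 with ABA and 4.53 without where neither mutant list had a peak, and a mutant pair elsewhere with 8.27 and 8.79. HB7, a homeodomain-leucine zipper factor, had 8.74 with ABA and 8.23 in the control in the mutant, a change of 18.1 points. WT had 16.0 and 11.8 at that site, a change of 12.0 points. A wider mutant control peak at HB7, with 11.5, was split with ABA. The part of it within the counted distance had 4.47, and values of parts farther away were not listed.

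Genes of ABA synthesis, breakdown and transport included 1 of 16 with a gained peak (6.25%), 0 with a lost peak and 2 with a rank rise (12.5% against 3.29% of all genes) in the mutant. NCED3, the dioxygenase of the rate-limiting step of stress-induced ABA synthesis, had both. It gained a peak of 3.85, and a second site had 5.15 with ABA and 4.54 in the control, a rise of 20.9 points. WT had 16.3 with ABA and 5.37 without at that second site, a rise of 72.6 points. At the site gained in the mutant, WT had no peak with ABA and one of 5.42 without. NCED2 had 5.93 with ABA and 5.34 in the control, a rise of 25.3 points. WT had 9.03 and 7.68 at that site, a change of 7.58 points.

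Among 19 stress transcription factors, 2 had a gained peak in the mutant (10.5%), 5 a lost peak (26.3%), 1 a rank rise (5.26%) and 3 a rank fall (15.8%). The shares of all genes were 5.11%, 13.8%, 3.29% and 3.93%. In WT 11 of the 19 had a gained peak (57.9% against 20.2% of all genes), 5 a lost peak (26.3% against 9.97%), 1 a rank rise and 1 a rank fall. In the mutant, NAC019 and MYC2 had the gained peaks. NAC055 had 6.18 with ABA and 5.78 in the control, a rise of 22.1 points. The falls were at DREB2A, with 5.28 with ABA and 7.71 in the control, at WRKY18, with 4.09 and 6.59, and at WRKY60, with 5.59 and 7.78. At these 2 WRKY sites WT did not show a fall, as WRKY18 had 7.06 with ABA and 5.93 without and WRKY60 had 10.7 and 9.09. Other WT sites of the WRKY genes differed. The WRKY18 site lost in the mutant had 4.33 with ABA and 5.59 without in WT, and another had 4.18 and 3.72. WRKY60 lost a WT peak with 4.54. WRKY40, without a rank fall in the mutant, had one in WT, with 5.10 and 7.34, a change of −32.1 points. These differences between genotypes were not tested. Of 5 other bZIP factors with a locus, ABI5 had a gained peak of 4.38 and GBF3 a lost one with 4.20.

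Of 14 root transport genes, 4 had a rank fall (28.6% against 3.93% of all genes) and 3 a lost peak (21.4% against 13.8%) in the mutant, and 0 had a gained peak or a rank rise. AHA2, the main plasma membrane proton pump of roots, had 4.60 with ABA and 7.20 in the control, a change of −35.6 points. AKT1, a potassium uptake channel, had 5.32 with ABA and 7.57 in the control, and its WT site 8.80 and 8.95. SULTR1;2, a sulfate transporter, had 6.84 with ABA and 10.4 in the control, against 12.2 and 13.8 in WT. PIP1;1, an aquaporin, had 4.46 with ABA and 6.38 in the control, and 6.97 and 8.71 in WT, changes of −25.4 and −22.2 points. The lost peaks were at NPF6.3, a nitrate transporter and sensor, FIT, the bHLH regulator of iron uptake, and AMT1;1, an ammonium transporter, with control values of 5.22, 5.30 and 4.54. The median change over the 19 mutant pairs of this group was −5.62 points, the lowest of the 10 groups, against 0.20 over all pairs. In WT 4 of the 14 had a gained peak and 3 a rank fall, with a median of −2.31 points.

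Of 13 auxin and lateral root genes, 3 had a lost peak in the mutant (23.1%), 1 a gained peak (7.69%) and 1 a rank fall (7.69%), against 13.8%, 5.11% and 3.93% of all genes. LBD16, a lateral root initiation factor, had both a lost peak with 5.57 and a fall, with 4.78 with ABA and 6.53 in the control. WT had 6.67 with ABA and 9.62 without at the fall, a change of −33.1 points. LBD18, which acts beside it, gained a peak of 5.09.

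**Figure D5:**
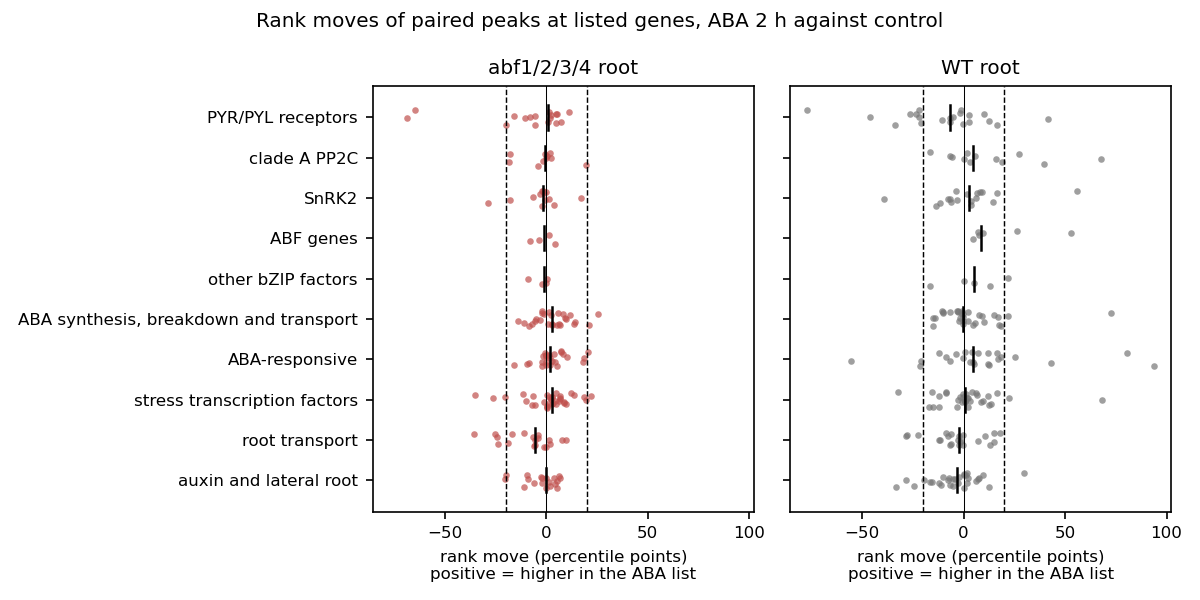
Change in rank percentile of paired peaks at listed genes, ABA 2 h against control, in abf1/2/3/4 roots (left, red) and WT roots (right, grey). Each point is a pair, black ticks are group medians, and dashed lines mark 20 points. In the mutant the upward changes end at 25.3 points, while the receptor falls reach −68.5. In WT the ABA-responsive genes extend to 93.9 points.

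As a check of the tissue, 15 of 21 root marker genes had a peak within 1500 bp with ABA and 16 had one in the mutant control. Guard cell markers had one at 6 of 10 genes and mesophyll markers at 6 of 8 genes in both lists, while the guard cell control list had all 10 and the mesophyll control list all 8 of their own markers. Of all genes 63.4% had such a peak with ABA and 66.9% without, so that an open site at a marker does not identify a cell type here. Among the root markers SMB had a gained peak, the one also listed at AT1G79570, SHR and ESB1 had lost peaks, GL2 and ESB1 rank rises, and SCR a rank fall.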

How the data were processed

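ATAC-seq libraries were made from sorted nuclei, per the labels' protocols. The submitters' processing notes name the build TAIR10 and, among other tools, Trim Galore 0.6.5, SAMtools, Picard, Genrich and bedtools 2.30, without their roles. The deposited lists have 10 columns and 1 list per group. Whether and how samples were pooled and how reads with several matches were handled is not given in the sources used here. The deposited −log10 p of a peak is the authors' unadjusted p-value, and the adjusted value is −1 throughout. The deposited area score, also the authors' own, was at least 200.0 in every peak used. The area score was used only to rank. The −log10 p was used to rank and filter and was also compared directly between lists, although its overall level differed between them.

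With Python 3.11.15, pandas 2.3.3, numpy 2.4.6 and scipy 1.17.1, overlaps of at least 1 bp, ranks by −log10 p with ties by area and position, and exact (Clopper-Pearson) 95% intervals were computed, and tested on simulated lists. Columns of per-sample values did not occur. Rank percentiles were taken among pairs only. Genes come from a RefSeq table of TAIR10.1, used for names and neighbours. As a check of the build, gene ends lay 150 bp or less from 41.1% of mutant control summits, and from 13.6% and 14.1% of them when these were shifted by 5 kb either way. Of 126 listed genes 125 matched by locus. Peaks named are the 10 gained and the 10 lost of highest rank and the 10 largest rises and falls, with the gene that holds the summit or ends nearest, and the listed genes. Members and lists were chosen with earlier results of these data known. Motifs were not searched, for want of a genome. Alternatives covered list length, peak strength, overlap rule, pairing, ranking column and distance to genes.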

Additional observations from a re-analysis of the deposited data

Results flagged for a closer look

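The balance of gained and lost peaks ran in opposite directions in the 2 genotypes. After 2 h of ABA, the share gained less the share lost came to −9.89 percentage points in abf1/2/3/4 roots and to 7.50 percentage points in WT roots. The treatment time is labelled 4 h in the mutant ABA group and 2 h in the WT one. With 1 list per group the difference between the genotypes was not tested. The ABA list was the shorter of the pair in the mutant and the longer in WT. By construction, the count gained less the count lost equals the difference in list length, apart from split or merged peaks. In the mutant these were 1243 ABA and 833 control peaks. The direction of the balance therefore largely restates which list was longer. Why the lengths differed was not tested.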

How the results depend on the processing

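With both lists at equal length, 8.17% of peaks were gained, 10.6% lost, and 16 listed genes had a gained peak. Requiring a −log10 p of 8 or more in both lists gave 1.32% gained and 33.8% lost, and seeking such peaks in the whole other list 0% and 0.273%. With a peak within 200 bp counted as shared, the shares were 4.32% and 13.3%. With summits outside genes only, an alternative chosen after seeing the data, they were 4.00% and 17.5%, with 312 rises and 461 falls. Moves of at least 10 points numbered 2339 rises and 2235 falls, and those of at least 30 points 139 and 248. Of the 2000 and 10000 strongest peaks, 0 and 67 were lost and 0 and 5 gained. With all root lists at equal length, 73.5% of gained peaks were in the WT ABA list and 51.1% in the WT control list, and of lost peaks 35.8% and 50.6%. Within 500 bp and 2000 bp of a gene lay 14.5% and 22.7% of gained peaks and 35.9% and 60.3% of lost ones, and 17 listed genes had a lost peak within 500 bp. The cause of these changes was not tested beyond what each setting removes. Lost exceeded gained shares under every setting run for the shares, and falls exceeded rises except at 10 points. In each setting run for the shares except equal length, the control list was the longer one. The agreement of the shares is thus not independent of list length. At equal length, gained and lost counts can differ only through split or merged peaks. Of the 40 named peaks none changed direction. With the 200 bp rule 1 gained and 1 lost peak counted as shared, and ranked by area 1 rise fell under 20 points. No paired analysis was possible because each group has 1 list, and leaving out samples and the motif windows could not be run. Sample depth is unknown, which limits all statements on weak peaks.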

Other observations

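Genes named as extensins, the hydroxyproline-rich glycoproteins of the cell wall, were grouped after 3 of them had been seen among the largest rank rises, so the group supports nothing by itself. Of 10 genes with an EXT, LRX or HRGP symbol and a mutant peak, 8 had a rank rise in abf1/2/3/4 roots (80% against 3.29% of all genes), 0 a rank fall and 3, EXT3, LRX2 and EXT4, a lost peak (30.0% against 13.8%), and the median change over their 14 pairs was 33.5 percentile points. HRGP1 had a −log10 p of 7.84 with ABA and 5.67 in the control, a rise of 48.5 points, and EXT12 had 8.10 and 5.82, a rise of 48.2. EXT6 had 9.08 with ABA and 6.89 in the control, and EXT4 had 6.76 and 5.76. EXT3 and EXT10 had no rise, with their first pairs at 4.09 and 4.46 with ABA and 4.24 and 3.58 in the control. In WT 1 of the 10 had a rank rise and the median change was 9.52 points over 16 pairs, with 17.1 with ABA and 12.4 without at EXT12. Extensin genes hold long repeats, and the placing of reads with several matches is not given in the sources used here.

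The gained share differed along the chromosomes, with a distance of 4 Mb chosen after seeing the data. Within 4 Mb of a chromosome end 2.97% of mutant ABA peaks were gained (exact 95% interval 2.58% to 3.40%), and farther in 6.05% (5.60% to 6.51%). It was lower near the ends on all 5 chromosomes, from 2.14% against 5.34% on chromosome 3 to 3.72% against 6.31% on chromosome 4. Lost peaks made up 15.3% near the ends and 14.4% farther in. In WT 13.2% of ABA peaks were gained near the ends and 16.9% farther in.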
